A study of Mus musculus with 4 samples.

Results

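The 10 genes described here encode C-type lectin receptors of myeloid cells: Clec7a, Clec9a, Clec4n, Clec4d, Clec4e, Clec5a, Clec4a2, Clec12a, Clec10a and Cd209a. They were chosen by symbol, and all 10 were found among the 13976 genes of the authors' table. The study sequenced the RNA of 4 sorted populations, each in bulk, from mouse tumours of EO771, a mammary carcinoma line. The populations were a dendritic cell (DC) labelled as CD11b+ with intermediate CD103 (called CD103int DC here), CD103+ conventional DC of type 1 (cDC1), CD11b+ conventional DC of type 2 (cDC2) and macrophages. Each population had 1 library, so no difference below was checked against replicate error and no test was possible. The labels used here do not give the sort gates, the strain, sex or age of the mice, their number, or whether they had received the heterodimeric interleukin-15 of the study's title.

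C-type lectin receptors bind sugars, lipids or proteins of microbes and of dying cells through a calcium-dependent lectin fold or a fold related to it. Many activating receptors of this family signal through the kinase Syk and the adaptor Card9 to NF-kappaB. They do so by a tyrosine motif in their own tail or by pairing with an adaptor that carries such motifs. These adaptors are Fcer1g (the Fc receptor gamma chain) and Tyrobp (DAP12). Inhibitory members recruit phosphatases such as Ptpn6 and Ptpn11, and endocytic members carry bound ligand into the cell for antigen presentation. Several of these receptors serve as surface markers of DC and macrophage subsets.

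Levels are in CPM (counts per 1000000 reads, as normalised by the authors), and the values in brackets are the bounds of the 95% interval that counting error gives, for a level or a fold, from estimated reads. By estimate, the libraries held 44425900 to 63817500 reads. Between 2 libraries a gene counted as different where log2(CPM + 1) was 1 or more apart (2-fold) with 10 CPM or more in the higher of them, and all 10 receptor genes reached 10 CPM in at least 1 library. In bulk samples, fewer cells of a type and less RNA per cell cannot be told apart. In the header, the name of the macrophage column starts differently from the names of the DC columns. If this marks a batch, the batch and the population cannot be told apart.

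Most cell type markers of cDC1 followed that label, whereas those of cDC2 did not single out the library labelled cDC2. Of the 10 cDC1 markers, 8 were highest in cDC1 and 2 in CD103int DC. The 10 cDC1 markers, all in the table, summed to 1441 CPM in CD103int DC, 3621 CPM in cDC1, 1126 CPM in cDC2 and 1282 CPM in macrophages. The 8 macrophage markers, also all in the table, summed to 1760.1 CPM in CD103int DC, 532 CPM in cDC1, 2753 CPM in cDC2 and 3195 CPM in macrophages. By this sum the library labelled cDC2 stood near the macrophage library. Of the 8, 6 were highest in macrophages. C1qa (572 CPM in cDC2 and 105 CPM in macrophages) and Mertk were highest in cDC2. The 6 cDC2 markers did not set cDC2 apart, with 2416 CPM in CD103int DC, 1028 CPM in cDC1, 2118 CPM in cDC2 and 2336 CPM in macrophages. Of these 6, 3 were highest in cDC1, 2 in macrophages, 1 in CD103int DC and 0 in cDC2. Of 4 markers shared by conventional DC, 3 were highest in cDC1 and 1, Itgax, in cDC2. Between cDC2 and macrophages, Itgax was at least 2-fold higher in cDC2 and Flt3 at least 2-fold lower. None of these markers was at 0 in any library.

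The receptor genes split the cDC1 library from the other 3. Clec7a, Clec4n, Clec4d, Clec4e, Clec5a, Clec4a2 and Clec12a were lowest in cDC1, and Clec9a, Clec10a and Cd209a were highest there. The CD103int DC library differed from the cDC2 library at least 2-fold only for Cd209a. Few genes of any kind differed in that pair, with 1.56% of 8119 genes higher and 0.665% lower. From the macrophage library it differed by that much only for Clec4d and Clec4e, where 4.35% of 8254 genes were higher and 8.31% lower. Clec4e and Clec4d, a neighbouring pair of genes, were the members in which the macrophage library stood highest by at least 2-fold above every other library.

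**Figure D1:**
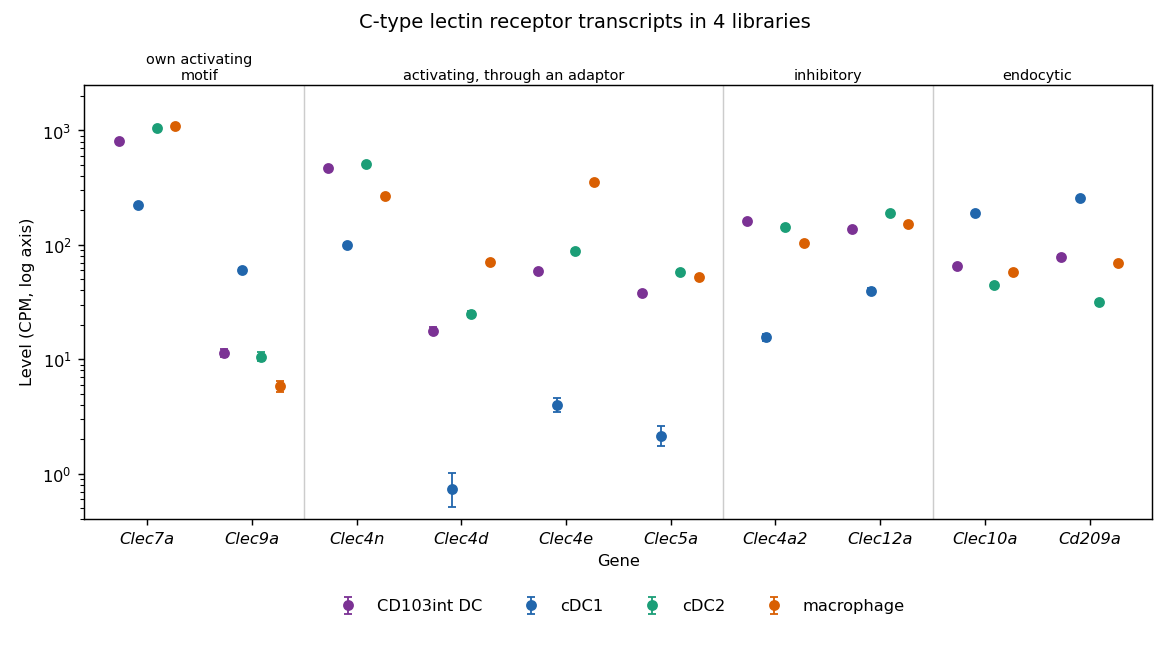
Level of each receptor gene in CPM on a log axis, 1 point per library, with genes grouped by how the receptor signals; bars are 95% counting intervals and are often smaller than the point. The cDC1 points lie lowest for 7 genes and highest for Clec9a, Clec10a and Cd209a, and Clec4d in cDC1 is the lowest value, at 0.734 CPM.

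The receptors with an activating motif in their own tail went in opposite directions. Clec7a (Dectin-1, ENSMUSG00000079293.11, chromosome 6, 129461591 to 129472779, minus strand), the receptor for fungal beta-glucans, stood at 816 (809 to 823) CPM in CD103int DC, 222 (218 to 226) CPM in cDC1, 1044 (1035 to 1054) CPM in cDC2 and 1084 (1076 to 1093) CPM in macrophages. It was high in the 3 CD11b+ or macrophage libraries, which lay within 2-fold of each other, and low in cDC1. Its level was 3.67-fold (3.60 to 3.75) higher in CD103int DC than in cDC1 and 4.88-fold (4.78 to 4.99) lower in cDC1 than in macrophages. The annotation classes this gene as a polymorphic pseudogene, a class for genes that are intact in some strains and disrupted in others.

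Clec9a (DNGR-1, ENSMUSG00000046080.17, chromosome 6, 129408862 to 129424763, plus strand) binds actin filaments exposed on dead cells and promotes cross-presentation by cDC1. It stood at 11.4 (10.6 to 12.4) CPM in CD103int DC, 60.2 (58.0 to 62.4) CPM in cDC1, 10.5 (9.61 to 11.5) CPM in cDC2 and 5.82 (5.20 to 6.50) CPM in macrophages. cDC1 was highest, the counting intervals of CD103int DC and cDC2 overlapped, and macrophages were lowest. The level was 5.26-fold (4.83 to 5.73) lower in CD103int DC than in cDC1 and 10.3-fold (9.20 to 11.6) higher in cDC1 than in macrophages. Clec9a shares 184 bases of exon with Clec1b on the same strand, and Clec1b did not exceed 1.66 CPM in any library. How reads of the shared bases were assigned is not given in the sources used here.

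Of the activating receptors that pair with an adaptor, Clec4n was the most abundant per kb of exon in every library. Clec4n (Dectin-2, ENSMUSG00000023349.14, chromosome 6, 123229843 to 123247021, plus strand), which recognises fungal mannans and pairs with Fcer1g, stood at 471 (466 to 477) CPM in CD103int DC, 101 (97.9 to 104) CPM in cDC1, 514 (508 to 521) CPM in cDC2 and 268 (263 to 272) CPM in macrophages. The CD103int DC and cDC2 libraries were high and close to each other, macrophages lay between, and cDC1 was lowest. The cDC2 level was 1.92-fold (1.88 to 1.96) and the CD103int DC level 1.76-fold (1.73 to 1.80) that of macrophages, short of the 2-fold rule. With columns rescaled to equal totals both passed it, with log2 differences of 1.08 for CD103int DC and 1.21 for cDC2.

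Clec4e (Mincle, ENSMUSG00000030142.10, chromosome 6, 123281789 to 123289870, minus strand) senses mycobacterial cord factor and a nuclear protein released by dead cells. Its level was 58.6 (56.7 to 60.6) CPM in CD103int DC, 4.0 (3.46 to 4.60) CPM in cDC1, 88.7 (86.0 to 91.4) CPM in cDC2 and 353 (348 to 358) CPM in macrophages. Macrophages stood above all 3 DC libraries, and cDC1 far below the others. The level was 6.03-fold (5.81 to 6.26) lower in CD103int DC than in macrophages, 3.99-fold (3.85 to 4.12) lower in cDC2 than in macrophages and 88.5-fold (76.8 to 102) lower in cDC1 than in macrophages.

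Clec4d (MCL, ENSMUSG00000030144.4, chromosome 6, 123262111 to 123275265, plus strand), which forms complexes with Mincle and Fcer1g, stood at 17.9 (16.8 to 19.0) CPM in CD103int DC, 0.734 (0.514 to 1.02) CPM in cDC1, 24.9 (23.5 to 26.4) CPM in cDC2 and 71.1 (68.9 to 73.4) CPM in macrophages. The order of the libraries was that of Clec4e. Its level in cDC1 rested on only 36 estimated reads, and the ratio to macrophages, 96.9-fold (69.9 to 139) lower in cDC1, is accordingly wide. Per kb of exon, Clec4e was at 1.06 times the level of Clec4d in CD103int DC, 1.75 times in cDC1, 1.15 times in cDC2 and 1.60 times in macrophages. The 6 monocyte markers, all in the table, were each highest in macrophages, as this pair was, but 4 of them (Ly6c2, Plac8, Ccr2 and Vcan) did not keep the order of the pair among the DC libraries. They summed to 1329.5 CPM in CD103int DC, 1051 CPM in cDC1, 1537 CPM in cDC2 and 5023 CPM in macrophages. Of 5 neutrophil markers 2 were among the genes analysed here, and they summed to 35.4 CPM in CD103int DC, 9.99 CPM in cDC1, 63.9 CPM in cDC2 and 158 CPM in macrophages, nearly all of it from Csf3r, while Cxcr2 was highest in CD103int DC, at 2.26 CPM. No marker of either list was at 0, and the part of such cells in the levels of Clec4d and Clec4e was not tested.

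Clec4d and Clec4e, whose levels ran alike, lie on opposite strands with their ends towards each other. Their upstream sequences are shown beside those of Clec7a, low in cDC1, and Cd209a, high in cDC1, which completes the members whose upstream window overlapped no annotated exon. The 250 bases before the start of each of the 4 genes are from RefSeq (build GRCm38.p6), and are given on the strand of the gene with matches to any of 6 motifs in capitals.
Clec4d (chr6:123261857-123262106, plus strand): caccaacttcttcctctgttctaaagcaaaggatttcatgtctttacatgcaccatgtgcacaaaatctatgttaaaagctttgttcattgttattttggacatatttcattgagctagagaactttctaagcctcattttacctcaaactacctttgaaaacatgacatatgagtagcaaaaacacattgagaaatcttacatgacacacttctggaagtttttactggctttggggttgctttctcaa
Clec4e (chr6:123289872-123290121, minus strand): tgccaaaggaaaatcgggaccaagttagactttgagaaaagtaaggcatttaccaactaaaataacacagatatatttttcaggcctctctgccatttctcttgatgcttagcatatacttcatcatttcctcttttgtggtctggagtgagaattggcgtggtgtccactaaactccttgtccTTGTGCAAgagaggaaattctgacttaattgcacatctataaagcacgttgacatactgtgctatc
Clec7a (chr6:129472780-129473029, minus strand): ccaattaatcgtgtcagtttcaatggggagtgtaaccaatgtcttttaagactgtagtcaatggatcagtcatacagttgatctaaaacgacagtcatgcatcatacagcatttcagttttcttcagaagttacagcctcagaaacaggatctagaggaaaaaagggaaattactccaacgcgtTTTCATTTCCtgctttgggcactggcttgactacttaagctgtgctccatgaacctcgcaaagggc
Cd209a (chr8:3748985-3749234, minus strand): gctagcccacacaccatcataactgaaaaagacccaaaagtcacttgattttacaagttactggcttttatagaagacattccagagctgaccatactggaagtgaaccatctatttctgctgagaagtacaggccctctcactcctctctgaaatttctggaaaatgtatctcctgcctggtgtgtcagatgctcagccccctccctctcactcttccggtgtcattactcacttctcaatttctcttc
The motifs searched, on both strands, were AGGAAGT (the core of PU.1 sites), TGANTCA (AP-1), TTGCNNAA (C/EBP), an interferon response element of GAAA and GAAA with 2 bases between, an ETS-IRF composite of GGAA and GAAA with 2 bases between, and an NF-kappaB motif of GGGA and TTTCC with 1 base between. Clec4e held TTGTGCAA, a match to the C/EBP letters on the other strand, 66 to 59 bases before its start, letters found in 9.56% of 32851 RefSeq windows of the same length. Clec7a held TTTCATTTCC, a match to the ETS-IRF letters on the other strand, 66 to 57 bases before its start, letters found in 2.30% of windows. Clec4d and Cd209a held no match to these letters in this window. Among the windows not shown, that of Clec12a, which was not highest in macrophages, held a C/EBP match (TTGCGCAA, 140 to 133 bases before its start) and an AP-1 match (TGAATCA, 213 to 207 bases before its start), and the windows of Clec5a, Clec4a2 and Clec9a held none. The shares of windows with the other motifs were 7.69% for PU.1, 2.98% for the interferon response element, 6.75% for AP-1 and 0.356% for NF-kappaB, and no matches in the 4 windows overlapped. Of the 10 genes, 8 had an entry in the RefSeq table, and Clec4n and Clec10a had none. Clec7a had 2 windows there, and only the first was shown, searched and checked for exons.

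Clec5a (MDL-1, ENSMUSG00000029915.14, chromosome 6, 40574894 to 40585821, minus strand) pairs with Tyrobp and is known as a receptor for dengue virus. It was at 37.7 (36.2 to 39.3) CPM in CD103int DC, 2.14 (1.75 to 2.59) CPM in cDC1, 57.7 (55.5 to 59.9) CPM in cDC2 and 52.3 (50.4 to 54.3) CPM in macrophages. Unlike Clec4d and Clec4e, it did not stand higher in macrophages than in cDC2, and cDC1 was again lowest. The level was 17.6-fold (14.5 to 21.6) higher in CD103int DC than in cDC1 and 1.39-fold (1.31 to 1.47) lower in CD103int DC than in macrophages.

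Both inhibitory receptors were lowest in cDC1. Clec4a2 (DCIR, ENSMUSG00000030148.15, chromosome 6, 123106428 to 123143999, plus strand), which restrains DC expansion in mice, stood at 163 (160.0 to 167) CPM in CD103int DC, 15.6 (14.5 to 16.8) CPM in cDC1, 144 (141 to 148) CPM in cDC2 and 104 (102 to 107) CPM in macrophages. It was the member whose highest level lay in CD103int DC, by 1.13-fold (1.10 to 1.17) over cDC2, and the 3 upper libraries were within 2-fold of each other. Its level was 10.4-fold (9.70 to 11.3) higher in CD103int DC than in cDC1. Clec12a (MICL, ENSMUSG00000053063.11, chromosome 6, 129342691 to 129365303, plus strand), which binds uric acid crystals and dampens inflammation, stood at 138 (135 to 141) CPM in CD103int DC, 40.0 (38.2 to 41.8) CPM in cDC1, 189.6 (186 to 194) CPM in cDC2 and 151 (148 to 154) CPM in macrophages. Again cDC1 stood apart, and the other libraries lay within 2-fold of each other. The level of Clec12a was 3.45-fold (3.28 to 3.63) higher in CD103int DC than in cDC1.

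Among the 10 genes, the endocytic receptors Clec10a and Cd209a had the opposite pattern. Clec10a (MGL1, ENSMUSG00000000318.16, chromosome 11, 70156197 to 70170834, plus strand), a galactose-type lectin, was at 65.2 (63.2 to 67.3) CPM in CD103int DC, 191 (187 to 195) CPM in cDC1, 44.2 (42.3 to 46.2) CPM in cDC2 and 57.7 (55.7 to 59.8) CPM in macrophages. cDC1 was high and the other 3 libraries lay within 2-fold of each other. Its level was 2.93-fold (2.82 to 3.05) lower in CD103int DC than in cDC1. Mgl2, its near copy, followed another order, with 807 CPM in CD103int DC, 337 CPM in cDC1, 368 CPM in cDC2 and 120 CPM in macrophages. How the authors counted reads shared by the copies is not given in the sources used here, and the sum of both genes reversed the comparison, with 872 CPM in CD103int DC against 528 CPM in cDC1.

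Cd209a (a mouse relative of human DC-SIGN, ENSMUSG00000031494.7, chromosome 8, 3743397 to 3748984, minus strand) was at 78.8 (76.5 to 81.1) CPM in CD103int DC, 257 (253 to 262) CPM in cDC1, 31.5 (29.9 to 33.2) CPM in cDC2 and 68.9 (66.7 to 71.1) CPM in macrophages. cDC1 was highest, CD103int DC and macrophages were close to each other, and cDC2 was lowest. The level was 2.50-fold (2.36 to 2.65) higher in CD103int DC than in cDC2, 3.27-fold (3.16 to 3.38) lower in CD103int DC than in cDC1 and 8.17-fold (7.74 to 8.63) higher in cDC1 than in cDC2. Its neighbours Cd209e (18.4 CPM in CD103int DC, 222 CPM in cDC1, 6.98 CPM in cDC2 and 16.4 CPM in macrophages) and Cd209d (13.9 CPM in CD103int DC, 117 CPM in cDC1, 5.78 CPM in cDC2 and 9.95 CPM in macrophages) kept the same order of libraries. Since the Cd209 genes resemble each other, reads could be split among them, but their sum kept the order too, at 114 CPM in CD103int DC, 603 CPM in cDC1, 45.9 CPM in cDC2 and 97.3 CPM in macrophages.

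Of 5 markers of plasmacytoid DC, 4 were highest in the same library as Clec9a, Clec10a and Cd209a, and Bst2 was highest in macrophages. All 5 were in the table, none was at 0, and they summed to 133 CPM in CD103int DC, 713 CPM in cDC1, 172 CPM in cDC2 and 261 CPM in macrophages. Siglech, a defining marker of these cells, stood at 0.366 CPM in CD103int DC, 15.0 CPM in cDC1, 1.38 CPM in cDC2 and 0.733 CPM in macrophages. Their part in the levels of these receptors was not tested.

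**Figure D2:**
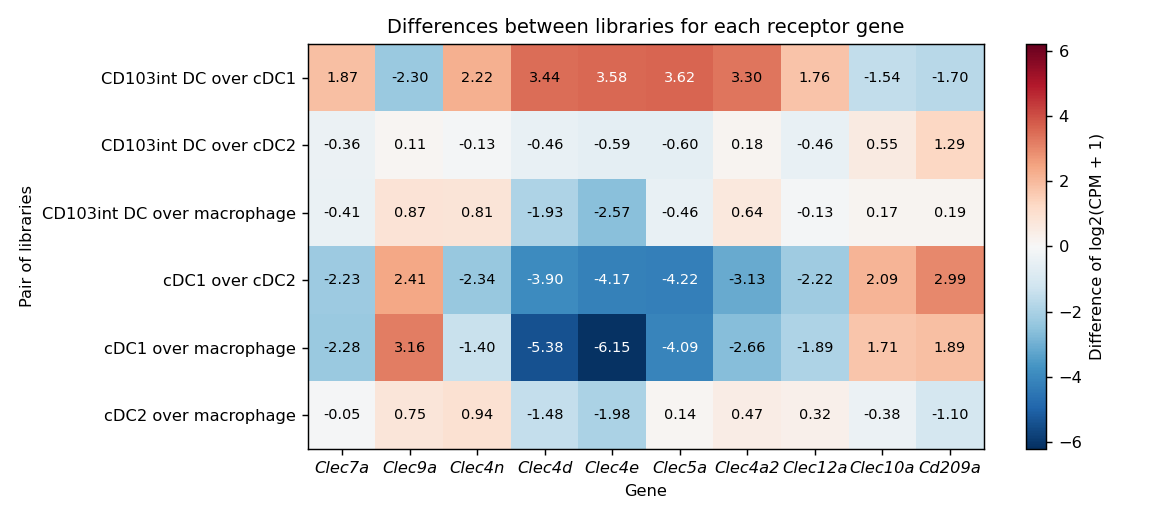
Difference of log2(CPM + 1) for each receptor gene (columns) in each of the 6 pairs of libraries (rows, first library minus second); red is higher in the first. All 10 genes pass 2-fold in the rows of CD103int DC over cDC1, cDC1 over cDC2 and cDC1 over macrophage, against 1 gene in the row of CD103int DC over cDC2.

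Counted over the 10 genes, the pairs with cDC1 differed most. In CD103int DC against cDC1, 7 were higher by 2-fold or more and 3 lower, where 9.16% and 5.46% of 8443 genes were. By 4-fold or more, 5 were higher and 1 lower, where 2.78% and 1.84% of genes were. The median difference was 2.04 over the receptors and 0.03 over all genes on log2(CPM + 1). In cDC1 against cDC2, 3 were higher and 7 lower (7.27% and 9.56% of 8459 genes), with a median of -2.28 against -0.01 over all genes. All 10 also passed 4-fold in that pair, in the same directions, as 2.34% (higher) and 3.59% (lower) of all genes did. In cDC1 against macrophages, 3 were higher and 7 lower (9.21% and 15.8% of 8468 genes), with a median of -2.09 against -0.09. With ribosomal and mitochondrial genes left out of equal totals, Clec4n fell just short, at a log2 difference of -0.96. With the values as normalised by the authors, 1 passed 4-fold upwards and 5 downwards in this pair, where 2.57% and 5.57% of genes did. These 3 pairs share the cDC1 library.

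The pairs without cDC1 differed in few receptors. Set against cDC2, in CD103int DC Cd209a was higher and 0 were lower, where 1.56% and 0.665% of 8119 genes were, with a median of -0.24 against 0.02 over all genes. None passed 4-fold, as 0.197% (higher) and 0.0123% (lower) of genes did. Set against macrophages, in CD103int DC 0 were higher and Clec4d and Clec4e were lower, where 4.35% and 8.31% of 8254 genes were, with a median of 0.02 against -0.07. Clec4e alone passed 4-fold, as lower, where 0.836% of genes were higher and 1.31% lower by that much. In cDC2 against macrophages, 0 were higher and Clec4d, Clec4e and Cd209a were lower, where 1.78% and 6.01% of 8141 genes were, with a median of 0.04 against -0.09. With columns rescaled to equal totals, Cd209a fell short of the rule, at a log2 difference of -0.84. With the values as normalised by the authors, none passed 4-fold in this pair, as 0.246% (higher) and 0.565% (lower) of genes did.

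Levels of different genes were set side by side after division by the length of their merged exons, which reads low for genes with long alternative transcripts. Per kb of exon, Clec4n and Clec7a led in CD103int DC, at 332 and 309 CPM per kb, and Clec7a and Clec4n led in cDC2, at 396 and 362 CPM per kb, and in macrophages, at 411 and 188 CPM per kb. In cDC1 Cd209a came first, at 163 CPM per kb, before Clec7a at 84.2, Clec4n at 70.9 and Clec10a at 66.0 CPM per kb. The endocytic receptors made up 8.70% of the summed CPM per kb of the 10 genes in CD103int DC, 54.9% in cDC1, 3.79% in cDC2 and 7.40% in macrophages. Activating receptors that pair with an adaptor made up 43.9% in CD103int DC, 17.5% in cDC1, 44.2% in cDC2 and 37.1% in macrophages. The inhibitory pair held 9.72% in CD103int DC, 3.02% in cDC1, 9.01% in cDC2 and 7.35% in macrophages. The sum itself was lowest in cDC1, with 830.4 CPM per kb in CD103int DC, 416 in cDC1, 928 in cDC2 and 857 in macrophages. Clec9a, known as a cDC1 marker, held 0.418% in CD103int DC, 4.39% in cDC1, 0.344% in cDC2 and 0.206% in macrophages.

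**Figure D3:**
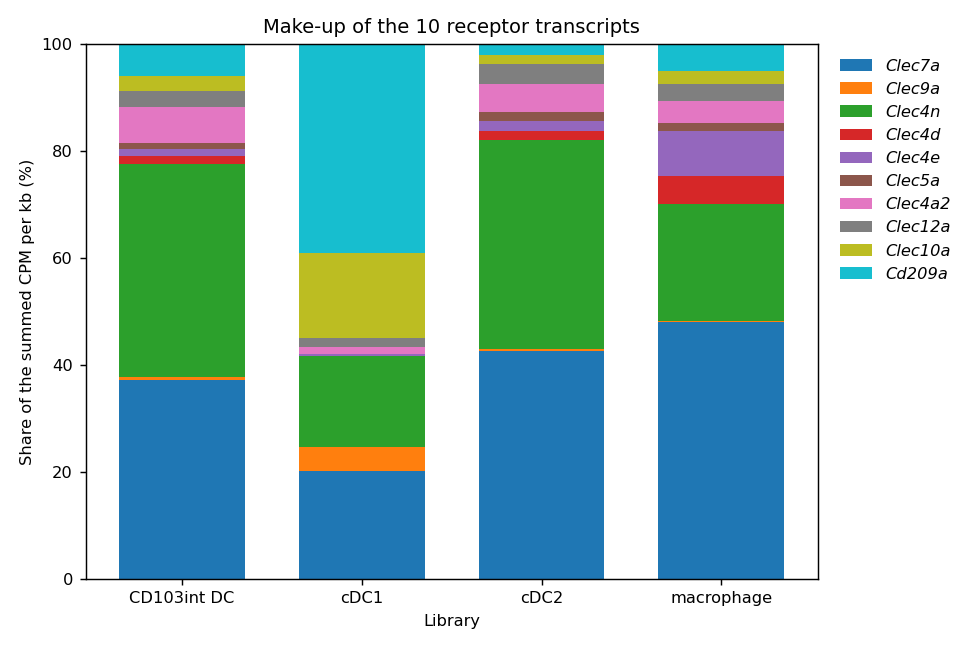
Share of each receptor gene in the summed CPM per kb of exon of the 10 genes, 1 stacked bar per library adding to 100%. Clec7a and Clec4n fill most of the CD103int DC, cDC2 and macrophage bars, while Cd209a, with 39.1%, is the largest part of the cDC1 bar.

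The receptor genes lie in 4 groups on the genome, with Clec5a apart from them, and neighbours within a group differed. The Dectin-2 cluster (chromosome 6, 122921848 to 123289870, 8 genes analysed) holds Clec4a2, Clec4n, Clec4d and Clec4e, and all 8 were lowest in cDC1. Clec4a1 and Clec4a3, close relatives of Clec4a2, were highest in macrophages, Clec4a1 at 173 CPM in CD103int DC, 28.1 CPM in cDC1, 267 CPM in cDC2 and 311 CPM in macrophages. Clec4a3 stood at 141 CPM in CD103int DC, 26.3 CPM in cDC1, 191 CPM in cDC2 and 241 CPM in macrophages. Clec4a2 and Clec4b1, which lie next to each other among the genes analysed, were highest in CD103int DC instead, Clec4b1 at 42.5 CPM in CD103int DC, 2.32 CPM in cDC1, 22.7 CPM in cDC2 and 9.82 CPM in macrophages. The last of the Clec4a genes, Clec4a4, did not exceed 1.17 CPM and was listed at 0 in cDC1. Since the Clec4a genes are near copies, reads could be split among them. Their sum was 478 CPM in CD103int DC, 70.1 CPM in cDC1, 603 CPM in cDC2 and 658 CPM in macrophages, so that it was highest in macrophages and not in CD103int DC.

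The Dectin-1 cluster (chromosome 6, 129342691 to 129507165, 6 genes analysed) holds Clec12a, Clec9a and Clec7a. Clec9a and Clec1a, which lie between Clec12a and Clec7a, were highest in cDC1, as was Clec1b, but Clec1a did not exceed 6.91 CPM and Clec1b did not exceed 1.66 CPM. Olr1, the receptor for oxidised lipoprotein at the end of the cluster, stood at 11.7 CPM in CD103int DC, 2.92 CPM in cDC1, 8.15 CPM in cDC2 and 15.7 CPM in macrophages. On chromosome 8, Cd209a, Cd209e, Cd209d and Cd209c were all highest in cDC1, whereas Cd209b did not exceed 0.776 CPM and was listed at 0 in cDC1. On chromosome 11, Asgr2, a subunit of the asialoglycoprotein receptor, and Mgl2 were highest in CD103int DC, and Clec10a was highest in cDC1, although the 3 genes lie within 78.2 kb. Asgr2 stood at 29.5 CPM in CD103int DC, 3.61 CPM in cDC1, 4.59 CPM in cDC2 and 1.43 CPM in macrophages.

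**Figure D4:**
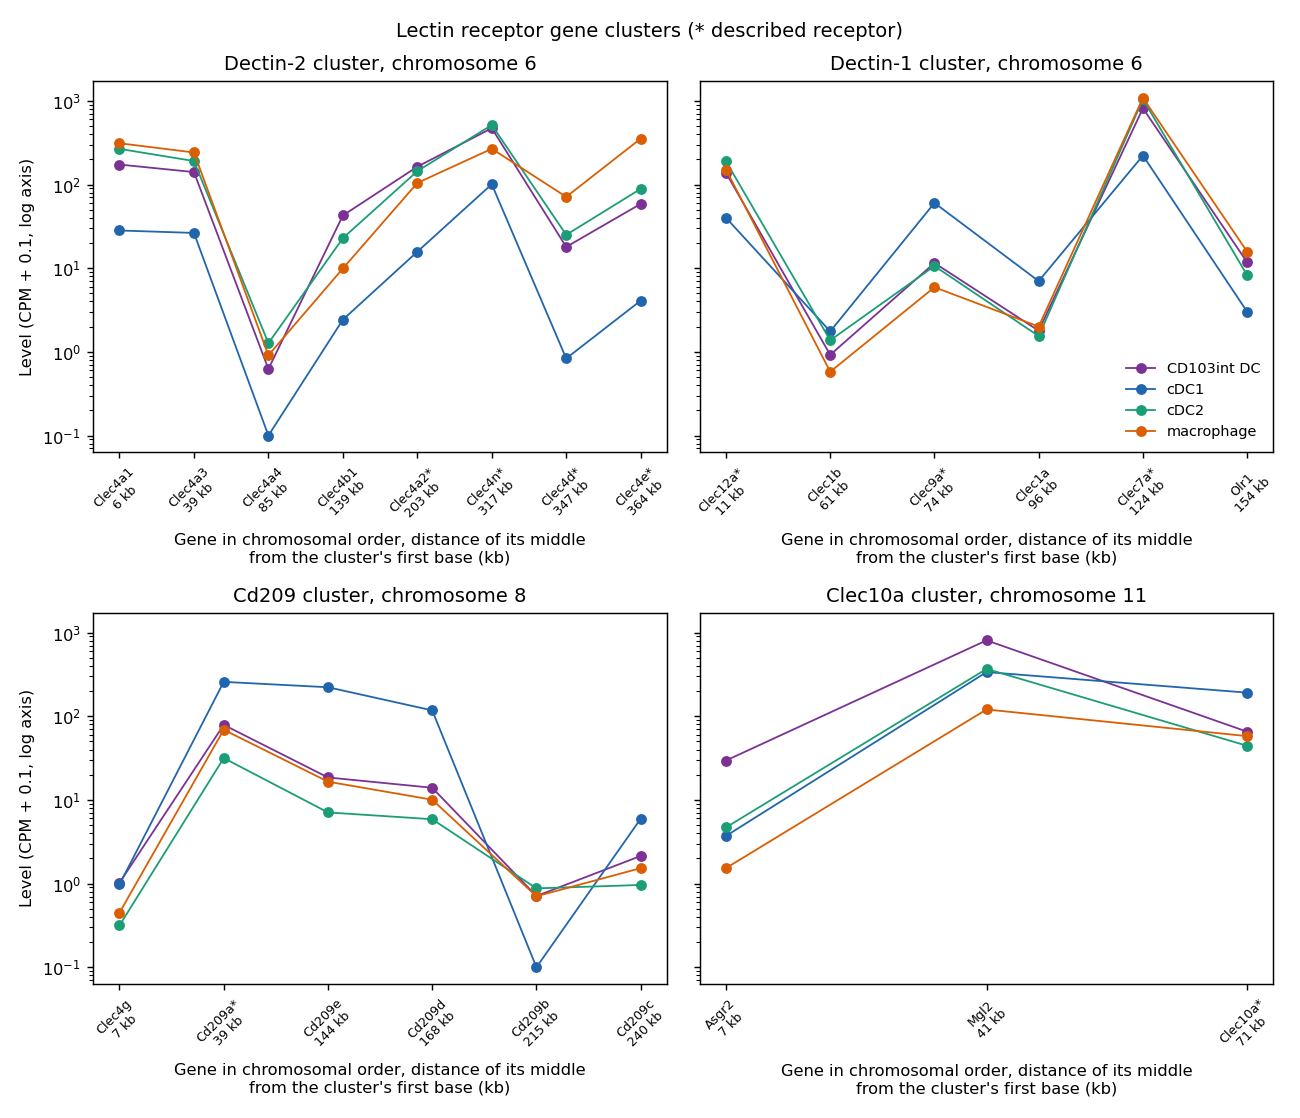
Levels of neighbouring C-type lectin genes in 4 gene clusters, with CPM + 0.1 on a log axis and genes in chromosomal order (distance in kb from the first base of the cluster); lines join the genes of 1 library as a guide and do not show values between genes. The cDC1 line lies lowest across the Dectin-2 cluster and highest from Cd209a to Cd209d, and the macrophage line lies highest at Clec4d and Clec4e.

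A wider list of 54 other genes with a C-type lectin domain, 36 of them in the table, placed the receptors in their family. Of the 23 genes with at least 10 CPM, 12 were 2-fold or more higher in CD103int DC than in cDC1 and 6 lower, where 9.16% and 5.46% of all genes were, with a median of 1.25. In CD103int DC against cDC2, 5 of 21 were higher (Mrc1, Cd209d, Cd209e, Mgl2 and Asgr2) and 0 lower, where 1.56% and 0.665% of all genes were, with a median of -0.12. In CD103int DC against macrophages, 4 of 22 were higher (Clec4b1, Mgl2, Asgr2 and Klrb1b) and 6 lower (among them Cd93, Cd69, Clec2d, Klra2 and Thbd), where 4.35% and 8.31% of all genes were, with a median of -0.19. In cDC1 against cDC2, 6 of 21 were higher and 8 lower (7.27% and 9.56% of all genes). In cDC1 against macrophages 7 of 21 were higher and 10 lower (9.21% and 15.8%), and in cDC2 against macrophages 4 of 20 went each way (1.78% and 6.01%).

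The mannose receptor gene Mrc1 stood at 633 CPM in CD103int DC, 187 CPM in cDC1, 311 CPM in cDC2 and 379 CPM in macrophages. Unlike Clec10a and Cd209a, Mrc1 was thus lowest in cDC1. Ly75 (DEC-205), an endocytic receptor of cross-presenting DC, was highest in cDC1, with 10.9 CPM in CD103int DC, 43.4 CPM in cDC1, 8.06 CPM in cDC2 and 14.2 CPM in macrophages. Thbd (thrombomodulin) resembled Clec4d and Clec4e, with 18.8 CPM in CD103int DC, 2.89 CPM in cDC1, 24.3 CPM in cDC2 and 125 CPM in macrophages. Klrd1 and Klra17 were highest in cDC1, at 67.3 CPM and 21.3 CPM there, and Cd72, an inhibitory receptor, was highest in cDC2, at 198 CPM.

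**Figure D5:**
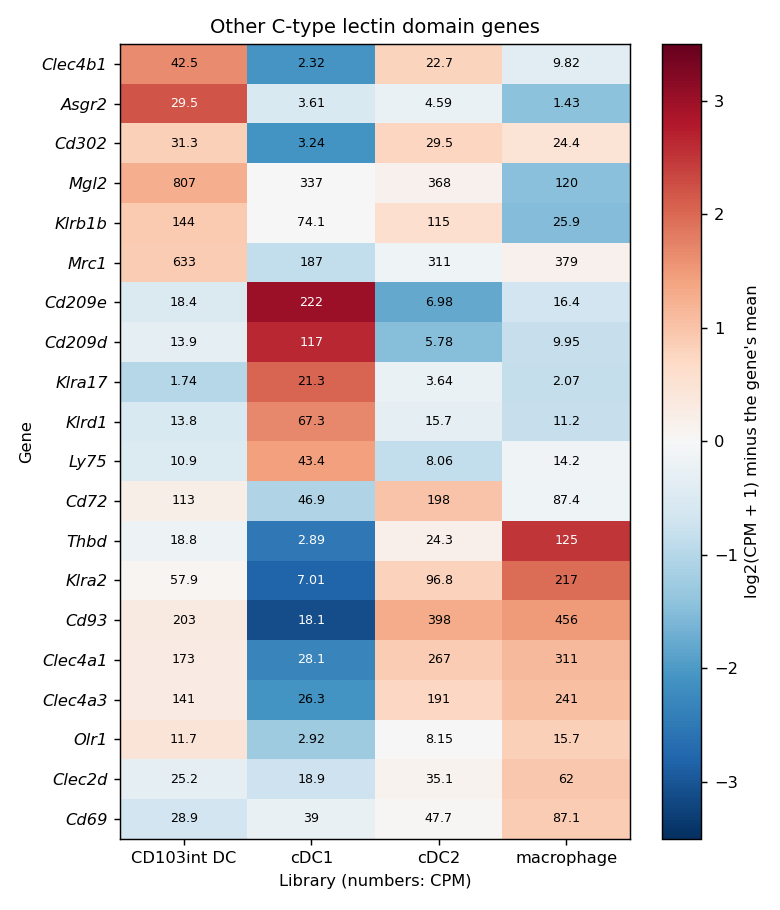
Plotted are 20 other C-type lectin domain genes with at least 10 CPM in a library and at least 2-fold between their highest and lowest library; colour is log2(CPM + 1) minus the mean of the gene over the 4 libraries, and the numbers are CPM. Of these, 6 were highest in CD103int DC, 5 in cDC1, 1 in cDC2 and 8 in macrophages.

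The signalling partners include the kinase, the adaptors and the phosphatases named above. Syk stood at 332 CPM in CD103int DC, 197 CPM in cDC1, 327 CPM in cDC2 and 376 CPM in macrophages. Card9 stood at 29.4 CPM in CD103int DC, 34.8 CPM in cDC1, 24.9 CPM in cDC2 and 32.3 CPM in macrophages. Both lay within 2-fold over the 4 libraries. Fcer1g, the adaptor of Clec4n, Clec4d and Clec4e, was lowest in the library where these receptors were lowest, at 301 CPM in CD103int DC, 139 CPM in cDC1, 396 CPM in cDC2 and 397 CPM in macrophages. Tyrobp, the adaptor of Clec5a, was at 348 CPM in CD103int DC, 229 CPM in cDC1, 402 CPM in cDC2 and 453 CPM in macrophages. Of the phosphatase genes in the list, Ptpn6 and Inpp5d were not lowest in cDC1, and Ptpn11 was about equally low in cDC1 and cDC2. Ptpn6 was at 315 CPM in CD103int DC, 328 CPM in cDC1, 425 CPM in cDC2 and 549 CPM in macrophages. Ptpn11 was at 96.5 CPM in CD103int DC, 87.0 CPM in cDC1, 86.8 CPM in cDC2 and 122 CPM in macrophages. Inpp5d was at 302 CPM in CD103int DC, 419 CPM in cDC1, 291 CPM in cDC2 and 370.4 CPM in macrophages.

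Of the 31 signalling genes, all in the table, 29 had at least 10 CPM in either library of each pair. In CD103int DC against cDC1, 2 were higher (Tec and Fcer1g) and 1 lower (Nfkb1), where 9.16% and 5.46% of all genes were, with a median of 0.16. Against cDC2 0 were higher and 0 lower in CD103int DC (1.56% and 0.665% of all genes), with a median of 0.01, and against macrophages 1 was higher (Blnk) and 3 lower (among them Rel; 4.35% and 8.31% of all genes), with a median of -0.60. In cDC1 against cDC2, 1 was higher and 3 lower (7.27% and 9.56% of all genes). In cDC1 against macrophages 1 was higher and 8 lower (9.21% and 15.8%), and in cDC2 against macrophages 1 went each way (1.78% and 6.01%). The adaptor gene Blnk had at least 4-fold between libraries. Blnk stood at 40.0 CPM in CD103int DC, 30.8 CPM in cDC1, 24.9 CPM in cDC2 and 7.53 CPM in macrophages.

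Genes that these receptors are known to induce, a list of 16 with 14 in the table, were for the most part lower in cDC1 than in the other libraries. Of the 10 with at least 10 CPM, 8 were 2-fold or more higher in CD103int DC than in cDC1 and 0 lower (median 1.70), where 9.16% and 5.46% of all genes were. Against cDC2, Egr3 alone was higher in CD103int DC and 0 were lower (median -0.08), where 1.56% and 0.665% of all genes were. Against macrophages 0 were higher and Ccl3, Ccl4, Il1b and Ptgs2 were lower (median -0.84), where 4.35% and 8.31% of all genes were. In cDC1 against cDC2, 1 was higher and 8 lower (7.27% and 9.56% of all genes). In cDC1 against macrophages 1 was higher and 9 lower (9.21% and 15.8%), and in cDC2 against macrophages 0 were higher and 3 lower (1.78% and 6.01%). Il1b, the gene of interleukin-1 beta, stood at 735 CPM in CD103int DC, 232 CPM in cDC1, 946 CPM in cDC2 and 2495 CPM in macrophages. Cxcl2, a chemokine gene for neutrophils, was highest in CD103int DC, at 228 CPM, against 17.1 CPM in cDC1, 172 CPM in cDC2 and 165 CPM in macrophages. Many other stimuli induce these genes as well.

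For each receptor gene, the 3 genes with the most similar profile were found among the 8724 genes with at least 10 CPM in a library, by the Euclidean distance of log2(CPM + 1) over the 4 libraries after subtraction of the mean of each gene. With 4 libraries a small distance says only that the 4 values run alike. The gene nearest to Clec4e was Clec4d (0.58), followed by the complement gene C3 (0.59) and Acod1 (0.74). C3 was the gene nearest to Clec4d (0.29), followed by Klra2 (0.49), and 4 genes lay nearer to Clec4d than Clec4e did. The nearest genes were Vipr1, Lzts1 and Sema6d for Clec9a (0.20 to 0.27), Rab11fip4, Ap1s3 and Ppm1m for Clec10a (0.09 to 0.11), and Sult1a1, Slc52a3 and Gem for Cd209a (0.21 to 0.35). They were Cd300lb, Gbp8 and Cd300c2 for Clec7a (0.13 to 0.16), Slc13a3, Gbgt1 and Arhgap10 for Clec4n (0.19 to 0.27), and Tnfsf12, Slc40a1 and Cd302 for Clec4a2 (0.29 to 0.30). They were Tnfsfm13, Cd68 and Cyp4v3 for Clec12a (0.07 to 0.08) and Inhba, C4b and Adgre1 for Clec5a (0.10 to 0.47). Cd302, near to Clec4a2, is itself a C-type lectin receptor gene and stood at 31.3 CPM in CD103int DC, 3.24 CPM in cDC1, 29.5 CPM in cDC2 and 24.4 CPM in macrophages.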

How the data were processed

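The authors deposited 1 table of expression signal for 13976 genes, with 1 column per population. Per the name of the deposited table, the values are CPM normalised with TMM (trimmed mean of M values), filtered by a rule that is not stated. Columns summed to 905670 to 1169350, with linear values and none below 0. Not given in the sources used here are the aligner, the counter, its strand setting and the genome build. Per the labels' protocols, total RNA went into a directional library kit. All 13976 pairs of identifier and symbol matched GENCODE release M21 (GRCm38), which gave coordinates, exon lengths and biotypes.

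The value of 1 estimated read in each column was taken as the coarsest step of which most values are multiples, and 70.6% to 79.0% of values above 0 were whole multiples at a tolerance of 0.001 of a step. Poisson intervals for levels and exact binomial intervals for ratios come from these estimates. Both cover the counting error of reads only. PCR reads that carry no molecular identifier do not each stand for a molecule, so the intervals can be too narrow even for counting error. Since the values are not counts and each population had 1 library, no test was run. Differences are on the log2(CPM + 1) scale, where changes of low genes come out too small. The rule of size and the intervals were tried on simulated data with counting error only. Such data cannot show how they perform where animals, sorts or libraries vary. The members and gene lists were chosen with earlier results of these data known. All members were named. Of the other lists, genes were named with at least 10 CPM in a library and a range of at least 2-fold (lectin domain genes) or 4-fold (signalling and induced genes), with direct partners and near copies at any value, and the 3 genes nearest in profile to each member. The fibroblast, T cell, NK cell and tumour cell markers summed to at most 34.4, 8.01, 8.58 and 9.28 CPM in any library. B cell markers were not analysed here, and a few genes of the lists are counted but not reported by name. A planned description of receptor tails from protein sequence was not made. Alternatives tried were 3 other scalings, pseudocounts of 0.1 and 5, minima of 1 CPM and none, a 4-fold rule and sums over near copies. Python 3.11.15 with numpy 2.4.6, pandas 2.3.3 and scipy 1.17.1 was used.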

Additional observations from a re-analysis of the deposited data

How the results depend on the processing

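Of the 60 differences of a receptor gene between libraries, 36 were at least 2-fold, and none of these changed sign under the 3 other scalings or with a pseudocount of 0.1 or 5. Counts of members at least 2-fold apart were the same as in the report with median-ratio scaling, with either pseudocount, with a minimum of 1 CPM and with no minimum. With columns rescaled to equal totals, and likewise when ribosomal RNA models, ribosomal protein and mitochondrial genes were left out of the totals, 2 members (Clec4n and Clec9a) in place of 0 were higher in CD103int DC than in macrophages and 1 (Clec4n) in place of 0 was higher in cDC2 than in macrophages. Under both, Cd209a was no longer 2-fold lower in cDC2 than in macrophages (log2 differences of -0.84 and -0.86), which left 2 members. Under the second, Clec4n was no longer 2-fold lower in cDC1 than in macrophages (-0.96), which left 6. The first rescaling moved the median log2 difference of all genes most in cDC1 against macrophages, to 0.29 in place of -0.09, and the second moved it to 0.37. With a 4-fold rule, 1 member was lower in CD103int DC than in cDC1, 0 were higher in CD103int DC than in cDC2, 1 was lower in CD103int DC than in macrophages, 1 was higher in cDC1 than in macrophages and 0 were lower in cDC2 than in macrophages. Summed with Mgl2, Clec10a reversed in CD103int DC against cDC1, to a log2 difference of 0.72. No paired analysis was possible because each population had 1 library and the labels give no replicate numbers. For the same reason no library could be left out. A level as low as that of Clec4d in cDC1, 36 estimated reads, limits its ratios to a wide range, whereas the other members rested on at least 105 estimated reads in every library. The variation between animals, sorts and libraries is unknown for every value.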
